A study of Mus musculus with 103 samples.

Results

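A pair of time points of the macrophage response to KLA were set directly against each other: RNA after 6 h of KLA against RNA after 1 h. KLA (Kdo2-lipid A) is the lipid part of bacterial lipopolysaccharide and activates the receptor TLR4. Each time point is 1 RNA library, so the comparison rests on 2 of the 103 samples that the labels describe, and differences are given with no p-value. The genes compared were chosen as 1 transcript per gene symbol (the one with the highest mean over the 6 RNA libraries), of at least 200 bases and with an RPKM of at least 1 in at least 2 of the 6 libraries, which left 10383 of 24014 symbols. RPKM is the read count of a transcript scaled to its length and to the size of the library.

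The cells of both libraries were thioglycollate-elicited macrophages (inflammatory macrophages washed from the peritoneum 3 to 4 days after injection of thioglycollate) from C57Bl/6 male mice 6 to 8 weeks old. No other allele is named for them in the labels. They were kept overnight in 0.5% serum and then given 100 ng/ml KLA for 6 h or for 1 h. The other 4 libraries from the same kind of cells are given beside them: untreated cells that were the control for 1 to 12 h, KLA for 12 h, untreated cells that were the control for 24 h, and KLA for 24 h. The labels do not say whether animals were pooled or whether the libraries come from the same batch of cells.

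TLR4 signals through the adaptors MyD88 and TRIF. Genes of the primary response have their factors (NF-κB, AP-1 and SRF among them) ready in the resting cell and need no new protein. Many of them encode inhibitors of the same pathways or unstable mRNAs. Secondary response genes need protein made in the first wave, and a large group of them depends on secreted interferon-β, which acts through its receptor. Antiviral genes that answer to it carry a short element, the ISRE, in their promoters.

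The promoters of 6 genes are shown as examples of short motifs, and each was chosen to hold a match. They are the 250 bases before the start site, from the RefSeq promoter table on GRCm38.p6. On each side they are the 3 most abundant called genes with 1 annotated start and a match, taken for the higher side from the antiviral and GTPase lists by RPKM at KLA 6 h, and for the lower side from the immediate early, NF-κB and primary response lists by RPKM at KLA 1 h. Capitals mark matches, on either strand, to GAAANNGAA (the core of the ISRE), GGGANNTTC (a κB-type motif, the kind bound by NF-κB), TGANTCA (an AP-1 motif) or TGACGTCA (a CRE). The first set, higher at KLA 6 h, is Rsad2 (chr12:26456453-26456702 on the minus strand), Isg15 (chr4:156200819-156201068 on the minus strand) and Ifit1 (chr19:34640639-34640888 on the plus strand).
Rsad2: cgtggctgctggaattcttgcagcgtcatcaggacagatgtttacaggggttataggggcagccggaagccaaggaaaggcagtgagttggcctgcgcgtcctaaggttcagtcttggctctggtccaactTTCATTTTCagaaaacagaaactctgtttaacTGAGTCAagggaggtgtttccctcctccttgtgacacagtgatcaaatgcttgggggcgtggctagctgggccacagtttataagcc
Isg15: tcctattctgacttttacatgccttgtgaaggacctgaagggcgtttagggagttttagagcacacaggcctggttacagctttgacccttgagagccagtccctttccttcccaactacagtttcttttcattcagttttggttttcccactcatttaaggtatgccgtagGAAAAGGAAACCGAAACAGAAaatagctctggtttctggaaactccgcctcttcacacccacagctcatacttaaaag
Ifit1: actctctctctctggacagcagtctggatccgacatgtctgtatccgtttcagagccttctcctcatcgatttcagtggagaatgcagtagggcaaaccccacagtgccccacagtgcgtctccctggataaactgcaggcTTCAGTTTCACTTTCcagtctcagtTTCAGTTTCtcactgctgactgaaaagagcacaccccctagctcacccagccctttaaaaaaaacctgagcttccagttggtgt
In Isg15 the capitals are 3 overlapping ISRE core matches that begin 78, 72 and 66 bases before the start site. In Ifit1 matches begin at 109, 103 and 84 bases, of which the first 2 overlap. Rsad2 has an ISRE core match at 119 bases and an AP-1 match at 87 bases.

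The set that was lower at KLA 6 h is Cxcl2 (chr5:90903649-90903898 on the plus strand), Cxcl1 (chr5:90890995-90891244 on the plus strand) and Nfkbia (chr12:55492648-55492897 on the minus strand).
Cxcl2: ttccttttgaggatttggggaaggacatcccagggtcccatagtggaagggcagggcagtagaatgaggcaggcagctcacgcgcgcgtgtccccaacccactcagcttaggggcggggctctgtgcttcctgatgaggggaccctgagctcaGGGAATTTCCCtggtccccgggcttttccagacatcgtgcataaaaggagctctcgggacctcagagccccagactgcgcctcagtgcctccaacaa
Cxcl1: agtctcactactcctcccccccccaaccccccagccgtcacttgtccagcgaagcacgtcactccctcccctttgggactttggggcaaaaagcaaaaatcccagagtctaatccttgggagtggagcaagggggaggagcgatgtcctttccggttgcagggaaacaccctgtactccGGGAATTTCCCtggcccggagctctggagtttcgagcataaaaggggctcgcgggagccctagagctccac
Nfkbia: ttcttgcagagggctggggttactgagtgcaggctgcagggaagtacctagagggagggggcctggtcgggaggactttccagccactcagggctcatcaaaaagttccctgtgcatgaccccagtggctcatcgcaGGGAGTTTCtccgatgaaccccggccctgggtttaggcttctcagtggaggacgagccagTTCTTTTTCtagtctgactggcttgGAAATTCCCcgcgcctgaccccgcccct
Cxcl2 and Cxcl1 hold the same run of letters in capitals, which match the κB-type motif on both strands, beginning 97 and 95 bases before the start site in Cxcl2 and 71 and 69 bases before it in Cxcl1. Nfkbia has κB-type matches at 113 and 28 bases and an ISRE core match at 53 bases. Tnf, the most abundant gene of this side, has its κB-type match after the start site and is not shown. A match describes the letters in this window and is not evidence of binding.

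At KLA 6 h, 849 genes (8.18% of those tested) were at least 2-fold higher than at KLA 1 h and 1576 (15.2%) were at least 2-fold lower, on the scale log2(RPKM + 1), which understates the change of weakly expressed genes. The rises reached further than the falls: 325 genes were at least 4-fold higher and 238 at least 4-fold lower, and 159 were at least 8-fold higher and 48 at least 8-fold lower. Of the called genes, 801 higher and 1467 lower ones also lay beyond counting error, as their 95% exact interval on the ratio of reads did not include 1. The median log2 ratio of all genes tested was −0.28, so most genes stood slightly lower at 6 h relative to the library total. When the 2 libraries were centred on their median instead, 1187 genes were higher and 1055 lower, which is 52.9% higher among the called genes against 35% without centring. The direction of small changes therefore depends on the scaling, and the list medians below are to be read against this −0.28. Counts of list members called are likewise to be read against 8.18% higher and 15.2% lower. For scale, the 2 untreated libraries differed at least 2-fold in 108 genes higher (1.04%) and 203 lower (1.96%) in the 24 h control.

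**Figure D1:**
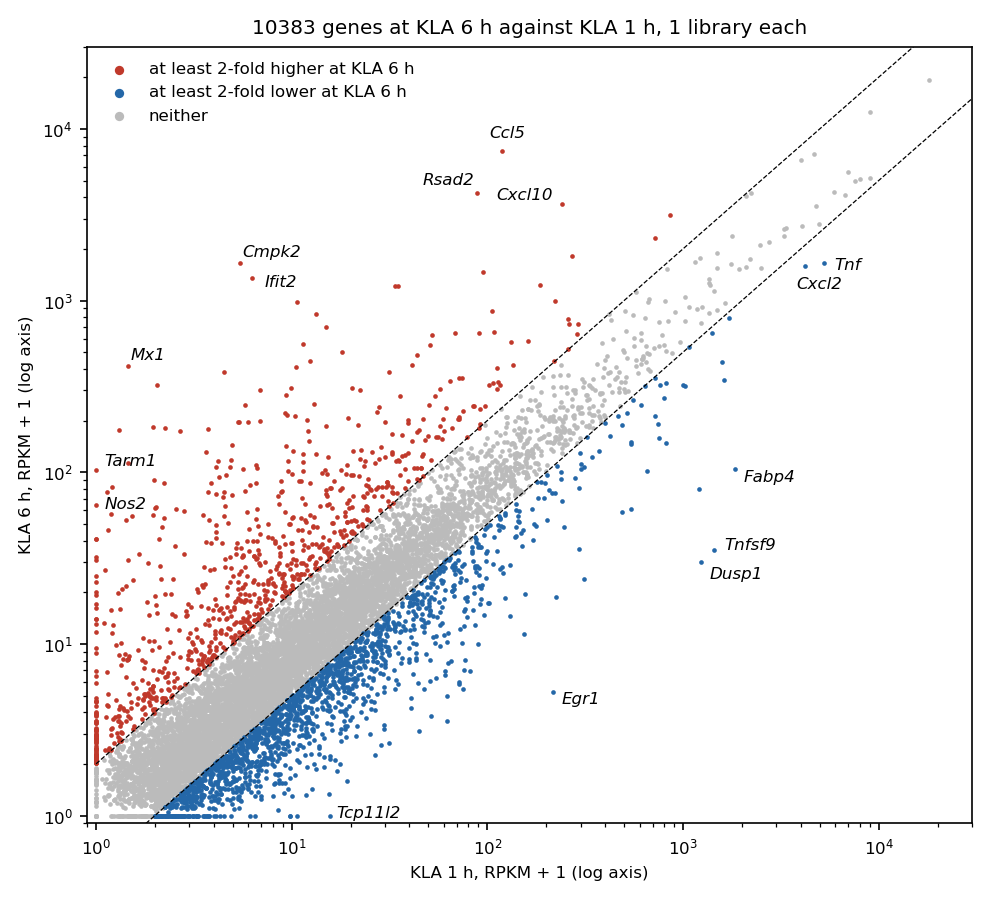
RPKM + 1 of 10383 genes at KLA 6 h (vertical log axis) against KLA 1 h (horizontal log axis), 1 library each. Dashed lines mark 2-fold; Cmpk2 stood at 1646 RPKM at 6 h against 4.44 at 1 h, and Dusp1 at 28.9 at 6 h against 1235 at 1 h.

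Library totals recovered from the RPKM values were 2372816 reads at KLA 6 h and 2399933 at KLA 1 h (2205187 to 2674826 over the 6 libraries). A single read on 1 kb thus gives 0.421 RPKM at 6 h and 0.417 at 1 h. A transcript of 1 kb without a read could still have had an RPKM of up to 1.26 at 6 h or 1.25 at 1 h (3 reads). Intervals and floors cover counting error only, not the spread between cultures. All 8 peritoneal macrophage markers were expressed in both libraries, with a summed RPKM of 11646 at 6 h and 16734 at 1 h, and 1 of them, Msr1, was at least 2-fold higher at 6 h. None of the 8 T and NK cell markers (summed RPKM 0.949 at 6 h, 1.19 at 1 h) and none of the 6 mast cell and basophil markers (1.17 at 6 h, 0.832 at 1 h) in the table passed the filter on low values. The 5 B cell markers summed to 7.85 RPKM at 6 h and 10.1 at 1 h, with none called, and 6 eosinophil markers to 2.62 at 6 h and 3.32 at 1 h, with 4 at 0 in each library. The 7 dendritic cell markers summed to 7.79 RPKM at 6 h and 4.81 at 1 h, with 4 of the 7 at 0 at 6 h and none at 1 h. The largest share of it was Ccr7, a homing receptor, at 7.26 RPKM at 6 h and 2.53 at 1 h, the only 1 of the 7 tested and called higher. The 9 fibroblast and mesothelial markers summed to 107 RPKM at 6 h and 103 at 1 h, with none called, and 8 neutrophil markers to 51.9 at 6 h and 44.8 at 1 h, nearly all of it S100a8 (51.7 RPKM at 6 h, 42.6 at 1 h), with 6 of the 8 at 0 at 6 h and 5 at 1 h. Another neutrophil marker, Ltf, was called lower, at 0.154 RPKM at 6 h against 1.52 at 1 h. The part of these cell types in the results was not tested. In bulk RNA, fewer cells of a type and less RNA per cell cannot be told apart.

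Of the tested genes with at least 30 reads in the higher library, Dusp1 and Egr1 had the lowest log2 ratios of RPKM + 1. Dusp1, a phosphatase that inactivates MAP kinases (NM_013642, chr17:26642536-26645417 on mm9), stood at 28.9 RPKM at KLA 6 h against 1235 RPKM at KLA 1 h, a 42.8-fold fall (95% counting interval 36.0 to 51.2). Egr1, a zinc finger factor induced by growth and stress signals, stood at 4.25 RPKM at 6 h against 216 at 1 h, 50.7-fold lower (35.6 to 74.9). In untreated cells the 2 genes were at 27.6 and 3.84 RPKM, close to their levels at 6 h.

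Of 19 immediate early factors tested (AP-1, EGR, KLF and related genes), 12 were at least 2-fold lower at KLA 6 h and 1 was higher. Over all genes, 15.2% were lower and 8.18% higher. The list had a median log2 ratio of −1.98 against −0.28 for all genes. Fos, a subunit of AP-1, fell to 4.43 RPKM at 6 h against 73.9 at 1 h (16.7-fold, 10.8 to 26.9). Egr2 fell to 17.6 RPKM at 6 h against 223 at 1 h (12.6-fold, 10.5 to 15.3). Klf2, a factor that restrains macrophage activation, fell to 3.25 RPKM at 6 h against 39.5 at 1 h (12.1-fold, 7.05 to 22.7). At 6 h Fos and Egr2 were below their untreated levels of 13.7 and 38.6 RPKM. Klf2 had 5.50 RPKM in untreated cells, on 22 reads against 14 at 6 h, so whether it fell below that level is uncertain. Junb, another AP-1 subunit, had the highest level of the list at 1 h and stood at 189 RPKM at 6 h against 748 at 1 h, 3.96-fold lower (3.67 to 4.28). Mafk, a small Maf protein, moved the other way, with 37.3 RPKM at 6 h against 13.3 at 1 h (2.81-fold, 2.20 to 3.62).

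The other 5 members of the list did not reach an RPKM of 1 in 2 libraries, and this filter removes genes that were high at 1 time only. In all, 77 symbols reached 1 RPKM in the KLA 1 h library alone and 49 in the KLA 6 h library alone, most of them on few reads: 5 and 1 had at least 30 reads. Nr4a1, an orphan nuclear receptor, was at 0.170 RPKM (1 read) at 6 h against 22.6 (134 reads) at 1 h, a ratio of 132 with a counting interval of 23.4 to 5272. Il23a, which codes for a chain of interleukin-23, stood at 0.621 RPKM (2 reads) at 6 h against 76.1 (248 reads) at 1 h, a ratio of 123 (33.6 to 1018). Egr3 was at 0.222 RPKM (2 reads) at 6 h against 4.72 (43 reads) at 1 h. Plagl1, a zinc finger factor, was the gene with 30 reads on the other side, at 3.85 RPKM (48 reads) at 6 h against 0.238 (3 reads) at 1 h. These 4 were named after their values were seen and are not in the counts of called genes.

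MAP kinase phosphatases and mRNA decay factors fell in 8 of 13 cases and rose in 1, against 15.2% and 8.18% over all genes. Their median was −1.19. When the libraries were centred on their median, 6 of these genes were lower. Dusp5, which acts on ERK in the nucleus, was at 2.56 RPKM at KLA 6 h against 61.0 at KLA 1 h (23.9-fold lower, 11.3 to 60.3). Zfp36, which encodes tristetraprolin, a protein that speeds the decay of cytokine mRNAs, was at 147 RPKM at 6 h against 813 at 1 h (5.54-fold lower, 5.08 to 6.05). Its level at 6 h was still above the 53.0 RPKM of untreated cells. Dusp6, the phosphatase of cytoplasmic ERK, moved the other way, at 5.73 RPKM at 6 h against 1.34 at 1 h (4.27-fold higher, 2.03 to 10.0, on 38 reads at 6 h and 9 at 1 h).

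Of 14 NF-κB genes tested, 6 were lower at KLA 6 h and 2 were higher, against 15.2% and 8.18% over all genes. Their median was −0.40, near that of all genes. The 6 that were lower were the IκB family genes Nfkbia, Nfkbid and Nfkbiz, then Tnfaip3 and Tnip3, and the subunit gene Rel. When the libraries were centred on their median, 4 genes of this list were lower and 3 higher. Nfkbid, which encodes a nuclear IκB protein, was at 10.5 RPKM at 6 h against 153 at 1 h (14.6-fold lower, 10.9 to 19.8). Nfkbiz, another nuclear member of that family, was at 59.9 RPKM at 6 h against 538 at 1 h (8.99-fold lower, 8.19 to 9.88). Nfkbia, which encodes IκBα, the inhibitor that holds NF-κB in the cytoplasm, was at 440 RPKM at 6 h against 1574 at 1 h (3.58-fold lower, 3.39 to 3.78). Tnfaip3, which encodes the inhibitor A20, was at 150 RPKM at 6 h against 544 at 1 h. The 2 that rose encode precursor subunits of the factor itself, Nfkb1 with 90.4 RPKM at 6 h against 23.5 at 1 h (3.85-fold, 3.33 to 4.47) and Nfkb2 with 162 at 6 h against 48.5 at 1 h (3.34-fold, 2.96 to 3.78). Rela, the main activating subunit, was at 63.2 RPKM at 6 h and 64.8 at 1 h, with an interval on the ratio of 1 h to 6 h of 0.892 to 1.18.

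Cytokines of the primary response did not move as 1 group: 7 of 23 fell, 6 rose and 10 were within 2-fold, with a median of 0.01. Over all genes, 15.2% fell and 8.18% rose. Tnfsf9, the ligand of the T cell receptor 4-1BB (chr17:57244808-57247180 on mm9), fell to 34.3 RPKM at KLA 6 h against 1434 at KLA 1 h (41.8-fold, 34.3 to 51.5). Gdf15, a stress-induced hormone of the TGF-β family, fell to 79.0 RPKM at 6 h against 1206 at 1 h (15.3-fold, 13.2 to 17.7). Cxcl1, a neutrophil attractant, fell to 345 RPKM at 6 h against 1622 at 1 h (4.70-fold, 4.35 to 5.09). Tnf was at 1648 RPKM at 6 h against 5276 at 1 h (3.20-fold lower, 3.11 to 3.29) and Cxcl2 at 1579 at 6 h against 4198 at 1 h (2.66-fold lower, 2.56 to 2.76), and both were still far above the 18.9 and 13.0 RPKM of untreated cells.

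The members that rose were Cxcl3, Ccl7, Ptgs2, Ccl2, Csf3 and Sod2. Cxcl3, another neutrophil attractant, stood at 172 RPKM at KLA 6 h against 11.1 at KLA 1 h (15.5-fold, 10.5 to 23.9), opposite to its relatives Cxcl1 and Cxcl2. Ptgs2, which encodes the inducible cyclooxygenase, was at 352 RPKM at 6 h against 73.3 at 1 h (4.80-fold, 4.43 to 5.21). Ccl2, the main monocyte attractant, was at 3145 RPKM at 6 h against 853 at 1 h (3.69-fold, 3.49 to 3.90). Il1b was at 4048 RPKM at 6 h and 2095 at 1 h, a 1.93-fold difference (1.88 to 1.99) that lies beyond counting error and under the 2-fold threshold.

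The 4 highest log2 ratios of RPKM + 1, with at least 30 reads in the higher library, were those of Cmpk2, Mx1, Ifit2 and Ifit3. By the plain ratio, which is printed with its interval, the order differs: Gm12250 (565) and Iigp1 (537) stood above Cmpk2. Cmpk2, a mitochondrial nucleotide kinase next to Rsad2 on chromosome 12 (chr12:27154080-27164702 on mm9), was at 1646 RPKM at KLA 6 h against 4.44 at KLA 1 h (370-fold, 265 to 535). Mx1, of the dynamin-like GTPase family and listed here as a non-coding transcript, was at 416 RPKM at 6 h against 0.464 (3 reads) at 1 h. Its ratio was 896 with a counting interval of 306 to 4348. Ifit2, which is known for binding viral RNA, was at 1346 RPKM at 6 h against 5.28 at 1 h (255-fold, 193 to 344), and Ifit3 at 322 at 6 h against 1.04 at 1 h (309-fold, 132 to 953). The untreated levels of these 4 genes were 2.28, 0.673, 1.03 and 0.681 RPKM, so they were low both before KLA and after 1 h of it. Ifit2 had nonetheless risen by 1 h, on 50 reads against 9 in untreated cells.

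All 29 antiviral effectors on the list were tested, and all 29 were at least 2-fold higher at KLA 6 h, against 8.18% of all genes, with log2 ratios of 2.73 to 8.24 and a median of 4.46. Each of the 29 also lay beyond counting error. Rsad2, which encodes the antiviral enzyme viperin, had the highest level, 4216 RPKM at 6 h against 87.4 at 1 h (48.2-fold, 45.0 to 51.8). Isg15, a ubiquitin-like modifier, had the smallest ratio of the list, with 1808 RPKM at 6 h against 271 at 1 h (6.67-fold, 6.07 to 7.35). Isg15 had been at 5.41 RPKM in untreated cells, so unlike Mx1 it was already raised at 1 h. Other members raised at 1 h included Ifit1 (1.55 RPKM untreated, 93.7 at 1 h and 1458 at 6 h) and Rsad2 (12.7 untreated). Oasl1 was a further one (5.13 untreated, 50.0 at 1 h), while others, such as Usp18 (3.59 untreated, 3.53 at 1 h), were not raised. Ifi44 had 39.9 RPKM at 6 h and no read at 1 h, at least 92.7-fold higher against a floor of 3 reads. Oas1a and Oas1g, and Ifit3 and its neighbour I830012O16Rik, have close copies, and how reads were shared between them is not known.

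Guanylate-binding proteins and immunity-related GTPases, which attack vacuoles that hold microbes, were higher nearly throughout: 12 of 13 tested were called, against 8.18% of all genes. Their median was 4.52 (4.60 with the 2 genes without a read at 1 h set at their bound). Iigp1 was at 76.1 RPKM at KLA 6 h against 0.142 (1 read) at KLA 1 h, a ratio of 537 (96.0 to 21253). Gbp2 had the highest level, 1208 RPKM at 6 h against 34.1 at 1 h (35.4-fold, 30.8 to 40.9). Igtp was at 196 RPKM at 6 h against 4.33 at 1 h (45.3-fold, 29.5 to 73.6). Tgtp1, on 4 reads at 6 h and none at 1 h, was the only member tested that was not called, and it is a near copy of Tgtp2.

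Interferon-β itself moved opposite to the antiviral genes. Ifnb1 was at 1.64 RPKM (3 reads) at KLA 6 h against 30.3 RPKM (56 reads) at KLA 1 h, a fall with a ratio of 18.5 (6.00 to 92.2), and it had no read in untreated cells or at 12 h. Among the 19 genes of interferon signalling tested, 11 were higher and 2 lower, against 8.18% and 15.2% over all genes. Their median was 1.31. Irf7, which carries the second wave of interferon transcription, was at 699 RPKM at 6 h against 13.9 at 1 h (50.2-fold, 38.8 to 66.1). Stat2 was at 76.2 RPKM at 6 h against 3.51 at 1 h (21.7-fold, 15.6 to 31.1) and Socs1, which inhibits the JAK kinases, at 73.4 at 6 h against 3.08 at 1 h (23.8-fold, 12.3 to 52.8). Irf1, the highest member at 1 h, was at 332 RPKM at 6 h and 310 at 1 h, against 21.2 in untreated cells. Irf4, the other gene that fell, was at 1.08 RPKM at 6 h against 3.47 at 1 h (3.21-fold lower, 1.65 to 6.74, on 12 reads at 6 h and 39 at 1 h), and was not called after centring on the median.

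**Figure D2:**
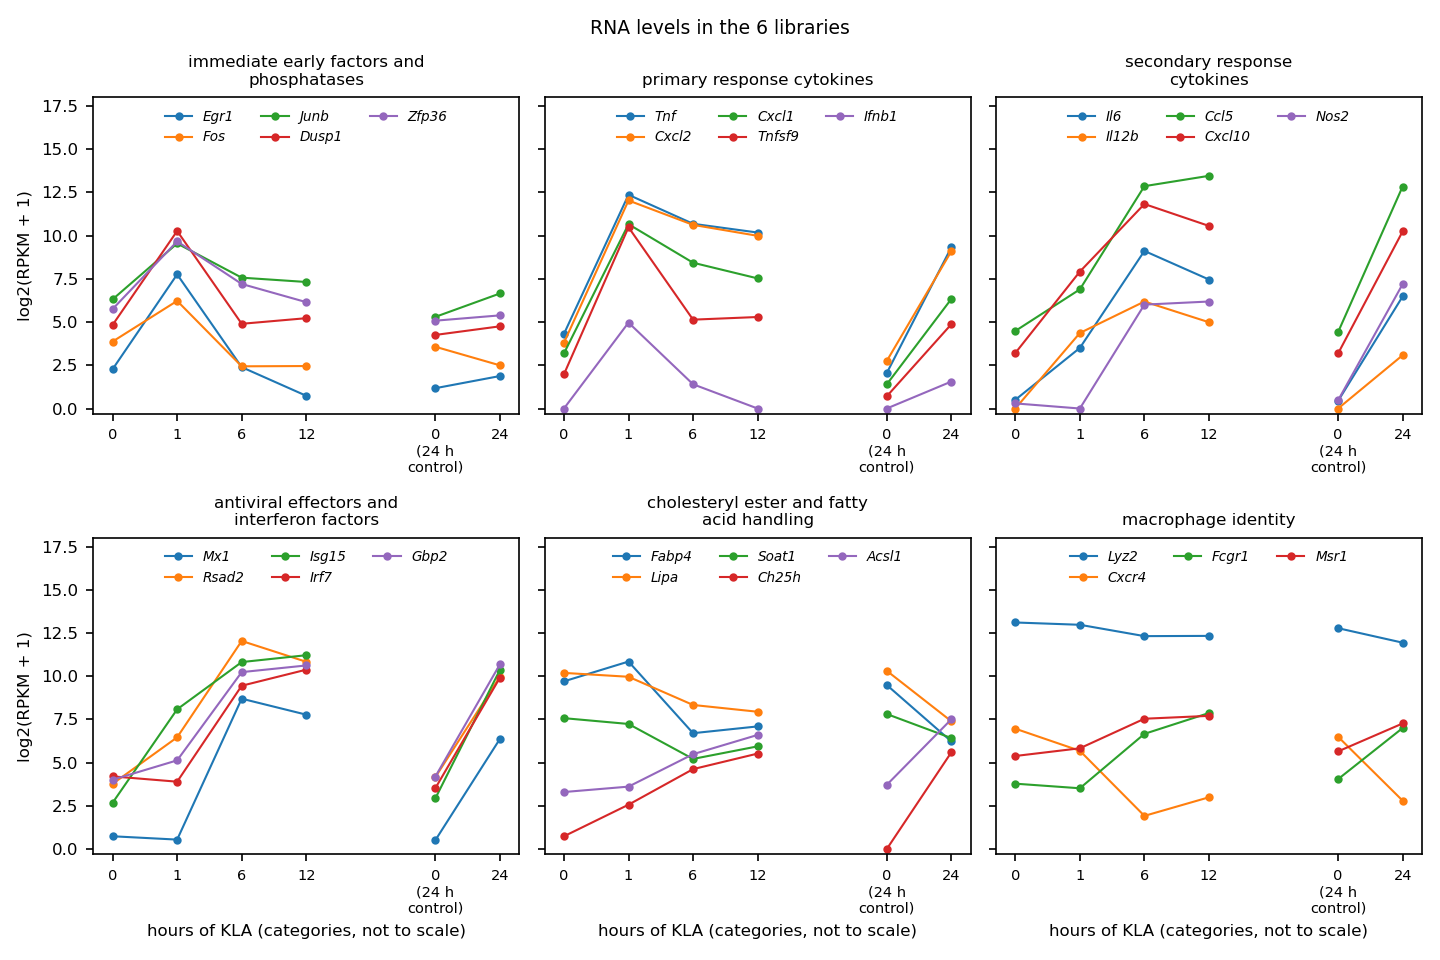
log2(RPKM + 1) in the 6 libraries for 29 genes in 6 groups, by hours of KLA; the untreated control for 1 to 12 h stands at 0 on the left and the 24 h pair stands apart on the right. Egr1, Dusp1 and Ifnb1 peak at 1 h, while Mx1, Irf7 and Nos2 stay near their untreated level at 1 h and are high at 6 h.

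Cytosolic and endosomal sensors of nucleic acids were higher in 11 of 14 cases and none was lower, against 8.18% and 15.2% over all genes. Their median was 2.14. Zbp1 was at 299 RPKM at KLA 6 h against 5.88 at KLA 1 h (50.9-fold, 28.2 to 103), Ddx58, which encodes the RNA sensor RIG-I, at 85.4 at 6 h against 2.87 at 1 h (29.8-fold, 21.2 to 43.3), and Ifi205 at 409 at 6 h against 9.56 at 1 h. Ifi205, Ifi204 and Mnda belong to a family of near copies, so their separate values are uncertain. Mavs, the adaptor of RIG-I, was at 5.94 RPKM at 6 h and 11.9 at 1 h.

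Among 22 secondary response cytokines and effectors, 18 were higher at KLA 6 h and none was lower, against 8.18% and 15.2% over all genes. Their median was 3.97 (4.03 with 2 genes at their bound). Whether the members need new protein was not tested. Some were already raised at 1 h, such as Irg1 (5.61 RPKM untreated, 722 at 1 h) and Cd40 (1.96 untreated, 50.9 at 1 h). Others were not, such as Nos2 (0.227 untreated, 0 at 1 h) and Cfb (3.63 untreated, 2.73 at 1 h). Nos2, the inducible nitric oxide synthase (chr11:78734361-78773626 on mm9), had 63.5 RPKM (601 reads) at 6 h and no read at 1 h, at least 203-fold higher. Ccl5, a T cell and monocyte attractant, had the largest rise in RPKM of all genes, with 7456 RPKM at 6 h against 118 at 1 h (63.2-fold, 53.8 to 74.8). Il6 was at 554 RPKM at 6 h against 10.4 at 1 h (53.5-fold, 36.6 to 81.5). Cfb, a protease of the alternative complement pathway, was at 178 RPKM at 6 h against 2.73 at 1 h (65.3-fold, 41.1 to 111).

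These genes differed in their later levels. Il6 was at 0.418, 10.4, 554 and 175 RPKM in untreated cells and after 1, 6 and 12 h, and at 88.5 after 24 h. Cfb was at 3.63, 2.73, 178 and 625 RPKM and at 1265 after 24 h. Ccl5 was at 21.4, 118, 7456 and 11289 RPKM and at 7350 after 24 h. So Il6 had its highest level at 6 h, while Cfb was higher at 12 and 24 h than at 6 h.

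Of 23 chemokines, 12 were higher at KLA 6 h and 2, Cxcl1 and Cxcl2, were lower, against 8.18% and 15.2% over all genes. Their median was 1.48. Cxcl9, an interferon-inducible T cell attractant, had 18.3 RPKM at 6 h and no read at 1 h, at least 42.5-fold higher. Cxcl10, which acts on the same receptor, was at 3643 RPKM at 6 h against 241 at 1 h (15.1-fold, 13.9 to 16.4). Ccl3 was at 4203 RPKM at 6 h and 2236 at 1 h (1.88-fold higher, 1.81 to 1.95). Ccl4, its neighbour in the cluster, was at 2701 at 6 h and 4036 at 1 h (1.49-fold lower, 1.44 to 1.55). The pair thus moved in opposite directions beyond counting error, each by less than 2-fold.

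**Figure D3:**
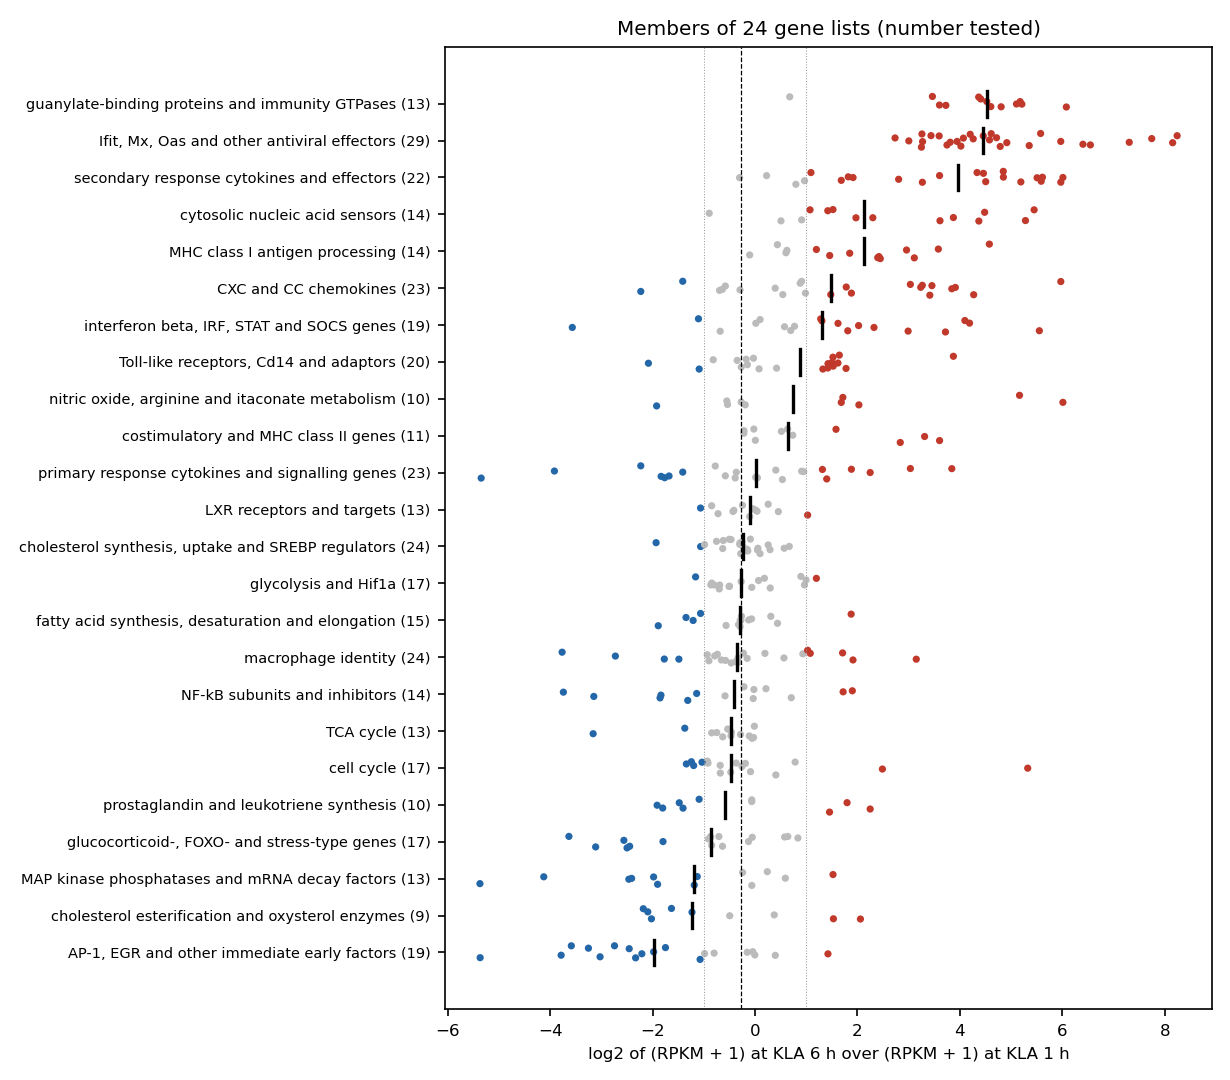
log2 ratio of RPKM + 1 at KLA 6 h over KLA 1 h for the members of 24 gene lists, ordered by median (black bar), with the number tested in parentheses; red, higher; blue, lower; grey, within 2-fold. The dashed line is the median of all genes (−0.28): antiviral effectors lie at 2.73 to 8.24 and immediate early factors have a median of −1.98.

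Of 14 genes of MHC class I processing, 10 were higher and none lower, with a median of 2.12, against 8.18% higher over all genes. Tap1, a subunit of the peptide transporter of the endoplasmic reticulum, was at 220 RPKM at KLA 6 h against 8.29 at KLA 1 h (26.6-fold, 20.4 to 35.3), and the immunoproteasome subunit Psmb9 at 186 at 6 h against 20.7 at 1 h (9.00-fold, 6.48 to 12.8). Nlrc5, the class I transactivator, was at 32.5 RPKM at 6 h against 1.80 at 1 h (18.0-fold, 12.5 to 27.0). B2m, the light chain, was at 7182 RPKM at 6 h and 4663 at 1 h (1.54-fold, 1.50 to 1.58).

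In the list of costimulatory and MHC class II genes 4 of 11 were higher and none lower, with a median of 0.64. The shares over all genes were 8.18% and 15.2%. The 4 were costimulatory or inhibitory ligands and receptors: Cd40 (630 RPKM at KLA 6 h against 50.9 at KLA 1 h, 12.4-fold), Cd86, Cd274 and Icosl. Cd274, which encodes PD-L1, was at 646 RPKM at 6 h against 89.6 at 1 h (7.21-fold, 6.69 to 7.78). No class II gene was called. Cd74, the invariant chain and the most abundant of them, was at 501 RPKM at 6 h and 499 at 1 h (ratio 1.01, 0.934 to 1.08).

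Among receptors and adaptors of the Toll-like family, 10 of 20 were higher and 2 lower at KLA 6 h, with a median of 0.87. The shares over all genes were 8.18% higher and 15.2% lower. Tlr3, the receptor of double-stranded RNA, was at 36.2 RPKM at 6 h against 1.54 at 1 h (23.5-fold, 14.3 to 41.6) and Tlr8 at 115 at 6 h against 33.0 at 1 h (3.50-fold, 3.04 to 4.04). Tlr13, a mouse receptor of bacterial ribosomal RNA, moved the other way, at 17.6 RPKM at 6 h against 77.9 at 1 h (4.41-fold lower, 3.73 to 5.25), as did the TRIF gene Ticam1, at 13.0 at 6 h against 28.7 at 1 h (2.22-fold lower, 1.71 to 2.89), a call that centring on the median ended. Tlr4 itself was at 15.5 RPKM at 6 h and 17.2 at 1 h. Cd14, its co-receptor and the most abundant of the list, was at 298 RPKM at 6 h and 525 at 1 h (1.76-fold, 1.64 to 1.90).

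Of 10 genes of nitric oxide, arginine and itaconate metabolism, 5 were higher (Nos2, Ass1, Slc7a2, Gch1 and Irg1) and 1 was lower. Over all genes, 8.18% were higher and 15.2% lower. The list had a median of 0.75. Slc7a2, a carrier that imports arginine, was at 130 RPKM at KLA 6 h against 2.65 at KLA 1 h (49.0-fold, 37.0 to 66.5). Irg1, the enzyme that makes itaconate, was at 2323 RPKM at 6 h against 722 at 1 h (3.22-fold, 3.11 to 3.33). Arg1, which competes for arginine, was lower, at 3.14 RPKM at 6 h against 14.7 at 1 h (4.67-fold, 2.41 to 9.93, on 11 reads at 6 h and 52 at 1 h).

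Of 9 genes of cholesterol esterification, transport from lysosomes and oxysterol metabolism, 5 were lower and 2 higher at KLA 6 h, against 15.2% lower and 8.18% higher over all genes, with a median of −1.23. Nceh1, which hydrolyses cholesteryl esters, was at 27.9 RPKM at KLA 6 h against 130 at KLA 1 h (4.66-fold lower, 4.10 to 5.31). Soat1, which makes those esters, was at 36.2 RPKM at 6 h against 150 at 1 h (4.15-fold lower, 3.72 to 4.63). Lipa, the lysosomal acid lipase, was at 323 RPKM at 6 h against 1002 at 1 h (3.10-fold lower, 2.96 to 3.26). Cyp27a1, which makes 27-hydroxycholesterol, was also lower, at 1.56 RPKM at 6 h against 9.93 at 1 h (6.36-fold, 2.85 to 16.7, on 7 reads at 6 h and 45 at 1 h).

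Ch25h, which makes 25-hydroxycholesterol, rose to 23.7 RPKM at KLA 6 h against 4.93 at KLA 1 h (4.80-fold, 2.78 to 8.83) and Cyp7b1, which breaks oxysterols down, to 4.67 at 6 h against 0.962 at 1 h (4.85-fold, 1.82 to 16.3, on 24 reads at 6 h and 5 at 1 h). Cyp7b1 was not called with a pseudocount of 3 and did not pass a filter of an RPKM of at least 5. Fabp4, a fatty acid carrier of macrophages and fat cells (chr3:10204343-10208576 on mm9), was among the lowest ratios of all genes, with 103 RPKM at 6 h against 1846 at 1 h (17.9-fold, 15.2 to 21.1). Untreated cells had 834 RPKM, so its level at 1 h was above and its level at 6 h below that of untreated cells.

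Lists of lipid synthesis stayed near the median of all genes. Cholesterol synthesis and uptake had a median of −0.24, with 0 of 24 higher and 2 lower, against a background of 15.2% lower. Dhcr7, the last step of synthesis, was at 4.19 RPKM at KLA 6 h against 18.8 at KLA 1 h (4.48-fold lower, 2.96 to 7.02) and Insig1, which holds SREBP in the endoplasmic reticulum, at 45.5 at 6 h against 96.2 at 1 h (2.11-fold lower, 1.83 to 2.44). Insig1 was not called when the libraries were centred on their median. Msmo1, the most abundant, was at 126 RPKM at 6 h and 148 at 1 h. Hmgcs1, the member not tested, is listed at 0 in each of the 6 columns. Since macrophages need this enzyme, a listed 0 may be a failed assignment of reads.

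In fatty acid synthesis, desaturation and elongation, 4 of 15 were lower and 1 higher, against 15.2% and 8.18% over all genes, with a median of −0.29. Centring on the median left 2 lower. The desaturase Fads1 was at 4.51 RPKM at KLA 6 h against 19.4 at KLA 1 h (4.30-fold lower, 2.99 to 6.33), the elongase Elovl5 at 9.55 at 6 h against 23.4 at 1 h (2.45-fold, 1.82 to 3.33) and Scd2 at 7.35 at 6 h against 16.4 at 1 h (2.24-fold, 1.75 to 2.88). Acsl1, which activates long-chain fatty acids, rose to 44.0 RPKM at 6 h against 11.2 at 1 h (3.91-fold, 3.15 to 4.89). LXR receptors and targets had a median of −0.10. Of 13 tested, 1 was lower and 1 higher, against 15.2% and 8.18% over all genes. Scd2 was lower, and Mertk, a receptor for dying cells, was higher, at 38.8 RPKM at 6 h against 18.5 at 1 h (2.09-fold, 1.73 to 2.55). Scd2 was not called after centring on the median, and neither of the 2 was called with a pseudocount of 3. The most abundant target, Apoe, was at 3576 RPKM at 6 h and 4764 at 1 h. Abcg1, a cholesterol exporter, was at 17.0 RPKM at 6 h and 31.3 at 1 h.

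Prostaglandin and leukotriene genes moved in both directions: 3 of 10 were higher and 5 lower, against 8.18% and 15.2% over all genes, with a median of −0.58. The 3 form the inducible route to prostaglandin E, namely the phospholipase Pla2g4a (19.4 RPKM at KLA 6 h against 6.44 at KLA 1 h, 3.01-fold), Ptgs2 (above) and the synthase Ptges (17.6 at 6 h against 4.34 at 1 h, 4.05-fold, 2.82 to 5.94). The constitutive cyclooxygenase Ptgs1 was lower, at 2.21 RPKM at 6 h against 10.2 at 1 h (4.61-fold, 2.62 to 8.68). So were 2 leukotriene genes. Lta4h was at 14.3 RPKM at 6 h against 56.5 at 1 h (3.95-fold, 3.03 to 5.22). Alox5ap was at 53.4 at 6 h against 115 at 1 h (2.15-fold, 1.71 to 2.73). The thromboxane synthase Tbxas1 was also lower, at 17.1 at 6 h against 49.3 at 1 h (2.89-fold, 2.23 to 3.78). Ltc4s was called lower on 1 read at 6 h and 5 at 1 h, and its interval includes 1.

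Most genes of central carbon metabolism were within 2-fold. Glycolysis with Hif1a had a median of −0.27 with 1 of 17 higher and 1 lower, against 8.18% and 15.2% over all genes. In this list 4 were higher and none lower when the libraries were centred on their median. Pfkfb3, which makes an activator of glycolysis, was at 17.1 RPKM at KLA 6 h against 6.89 at KLA 1 h (2.48-fold, 1.90 to 3.28), and Tpi1 at 41.9 at 6 h against 94.8 at 1 h (2.26-fold lower, 1.87 to 2.74). Hif1a, the factor of the hypoxic response, lay at the threshold, with 70.5 RPKM at 6 h and 34.8 at 1 h and a log2 ratio just under 1. In the TCA cycle list 2 of 13 were lower and none higher, a share near the 15.2% lower over all genes. Of the 2, Idh1 encodes the cytosolic isocitrate dehydrogenase, which is not a step of the cycle itself. It was at 13.6 RPKM at 6 h against 130 at 1 h (9.52-fold lower, 7.47 to 12.3), and the mitochondrial Idh2 at 8.68 at 6 h against 24.0 at 1 h (2.77-fold lower, 1.86 to 4.20). Idh3a, a subunit of the NAD-dependent enzyme of the cycle, was at 9.12 RPKM at 6 h and 13.0 at 1 h. Pgk1, Eno1 and Gapdh have close copies in the genome and are uncertain.

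Genes of macrophage identity did not move together: 5 of 24 were higher and 4 lower, against 8.18% higher and 15.2% lower over all genes, so the share that fell was near the background. The median of −0.36 was near that of all genes, and 3 were higher with a pseudocount of 3. Cxcr4, the receptor of Cxcl12, was at 2.79 RPKM at KLA 6 h against 50.6 at KLA 1 h (18.1-fold lower, 10.2 to 35.6), and at 124 RPKM in untreated cells. Maf, a transcription factor, was at 47.6 RPKM at 6 h against 11.9 at 1 h (4.00-fold higher, 3.22 to 5.01). Fcgr1, a high-affinity antibody receptor, was at 101 RPKM at 6 h against 10.5 at 1 h (9.62-fold higher, 7.44 to 12.6), while Fcgr3, a low-affinity one, was at 132 at 6 h against 372 at 1 h (2.81-fold lower, 2.52 to 3.15). Cebpa, Msr1 and Mertk were also called. Ctsd, a lysosomal protease and the most abundant of the list, was at 5206 RPKM at 6 h and 8979 at 1 h (1.72-fold, 1.70 to 1.75), the largest fall in RPKM of any gene tested though under 2-fold.

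Of 17 genes of glucocorticoid, FOXO and stress responses, 6 were lower and none higher, against 15.2% and 8.18% over all genes. Their median was −0.87. Ypel3, a gene linked to growth arrest, was at 3.98 RPKM at KLA 6 h against 60.8 at KLA 1 h (15.3-fold, 7.82 to 34.1), Gadd45a at 4.48 at 6 h against 46.3 at 1 h (10.3-fold, 5.85 to 19.9) and Bcl6, a repressor, at 2.18 at 6 h against 17.8 at 1 h (8.14-fold, 4.91 to 14.4). Atf4, the most abundant, was at 111 RPKM at 6 h and 181 at 1 h. Among 17 cell cycle genes, 4 were lower and 2 higher, against 15.2% and 8.18% over all genes. Only 1 was lower when the libraries were centred on their median. Ccnd2, which encodes cyclin D2, was at 44.8 RPKM at 6 h against 0.144 (2 reads) at 1 h, a ratio of 311 (85.6 to 2570), and Ccne1, cyclin E1, at 8.19 at 6 h against 0.639 (3 reads) at 1 h, a ratio of 12.8 (4.06 to 64.9). Mki67, a mark of cycling cells, was at 3.05 RPKM at 6 h against 9.27 at 1 h (3.03-fold lower, 2.32 to 4.01), and Cdkn1c, an inhibitor of the cycle, at 99.2 at 6 h against 236 at 1 h (2.38-fold lower, 2.13 to 2.66).

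Several genes outside the lists were among the 15 highest and the 15 lowest log2 ratios of RPKM + 1 of the tested genes. Tarm1, a receptor of myeloid cells, had 102 RPKM at KLA 6 h and no read at KLA 1 h, at least 78.2-fold higher. AW112010, listed as a non-coding transcript, was at 977 RPKM at 6 h against 9.69 at 1 h (101-fold, 63.6 to 171), Gm12250, annotated by its predicted-gene name, at 174 at 6 h against 0.309 at 1 h (2 reads, a ratio of 565, 156 to 4674), and Slfn1, a schlafen gene, at 112 at 6 h against 0.449 at 1 h (2 reads, a ratio of 249, 68.5 to 2060). Serpina3g, a protease inhibitor, was at 179 RPKM at 6 h against 1.25 at 1 h (144-fold, 65.8 to 393) and Ms4a4c at 173 at 6 h against 1.69 at 1 h (102-fold, 49.2 to 254). AW112010 went on to 2210 RPKM at 12 h and 2734 at 24 h.

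On the other side, Tcp11l2 had no read at KLA 6 h and 85 reads (14.8 RPKM) at KLA 1 h, at least 28.0-fold lower, with 22.7 RPKM in untreated cells. Arhgap18 was at 0.583 RPKM at 6 h against 18.2 at 1 h (31.2-fold lower, 13.1 to 97.5), and Mknk2, a kinase of a translation factor, at 4.81 at 6 h against 70.8 at 1 h (14.7-fold lower, 10.4 to 21.4). These 3 genes, Ypel3 and Cxcr4 were at or above 14.6 RPKM in untreated cells. Errfi1, an inhibitor of EGF receptor kinases, and Csrnp1, a nuclear protein of the immediate early kind, were instead low in untreated cells (1.95 and 6.28 RPKM). Errfi1 was at 2.10 RPKM at 6 h against 43.5 at 1 h (20.8-fold lower, 12.4 to 37.5), and Csrnp1 at 22.8 at 6 h against 312 at 1 h (13.7-fold lower, 11.6 to 16.2). The lowest ratios thus hold genes that were low before KLA and high at 1 h, and genes that were expressed before KLA and lower after 6 h of it.

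The largest falls in RPKM that stayed under 2-fold, after that of Ctsd, were those of 4 abundant RNAs: Lyz2 (5118 RPKM at KLA 6 h, 8068 at KLA 1 h), Lgals3 (4097 at 6 h, 6749 at 1 h), Psap (4940 at 6 h, 7581 at 1 h) and Ftl1 (2776 at 6 h, 4933 at 1 h). The largest rises under 2-fold were those of Tmsb4x (12466 RPKM at 6 h, 9040 at 1 h) and Actb (6574 at 6 h, 4030 at 1 h), which encode an actin-binding peptide and β-actin. Ftl1 and Actb have close copies in the genome and are uncertain.

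The genes called between KLA 6 h and KLA 1 h were followed in pairs of libraries that this comparison did not use. KLA 24 h against its own untreated library was at least 2-fold higher in 9.62% and lower in 10.3% of all genes tested. Of the 849 genes called higher at KLA 6 h, 523 (61.6%) were at least 2-fold higher at KLA 24 h than in that control and 8 were lower, with a median log2 ratio of 1.43 against −0.10 for all genes. Of the 1576 called lower, 598 (37.9%) were at least 2-fold lower at 24 h and 44 were higher, with a median of −0.75. KLA 12 h against the other untreated library gave 8.53% higher and 16% lower over all genes. There, 577 of the 849 (68%) were higher and 6 lower, and 873 of the 1576 (55.4%) were lower and 33 higher. So most of the genes called higher were at least 2-fold above their untreated level at 12 and at 24 h. The filter on low values had left out 49 symbols that reached 1 RPKM at KLA 6 h alone. It thus sets a part of these shares. The difference between the shares of rising and falling genes was not tested.

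**Figure D4:**
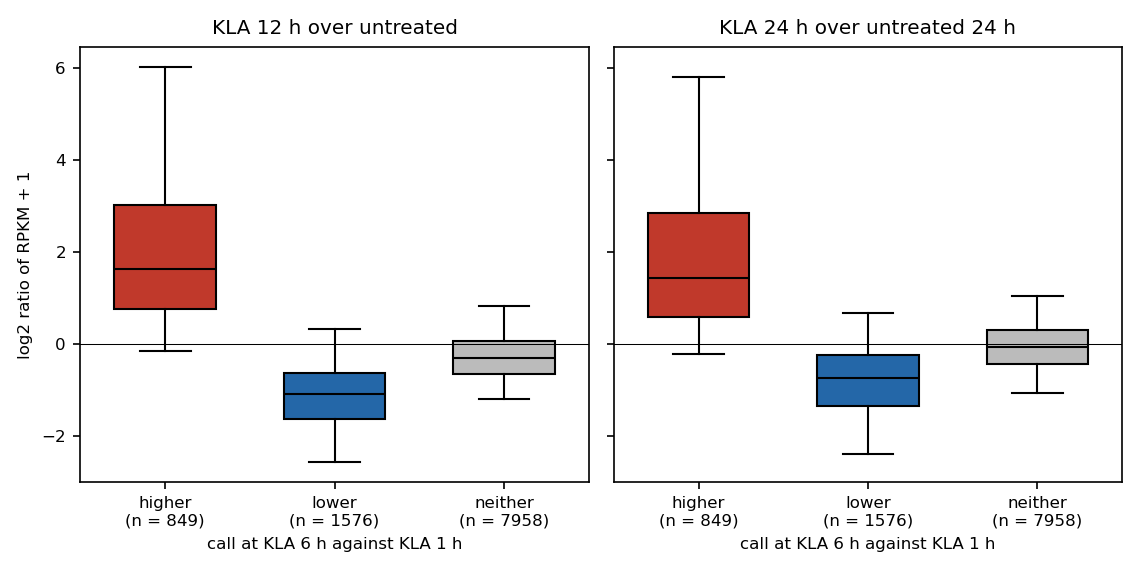
log2 ratio of RPKM + 1 at KLA 12 h over untreated (left) and KLA 24 h over untreated 24 h (right) for genes called higher (849), lower (1576) or neither (7958) at KLA 6 h against KLA 1 h; boxes give the quartiles and median, whiskers the percentiles 5 and 95. The medians at 24 h are 1.43, −0.75 and −0.08.

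In levels, the genes called higher had a median of 24.4 RPKM at KLA 6 h and 4.69 at KLA 1 h, and of 4.65 in untreated cells, so as a group they were low before the step. The genes called lower had a median of 2.76 RPKM at 6 h, 10.0 at 1 h and 10.6 in untreated cells. The step itself shares a library with the neighbouring steps, which are given side by side: KLA 1 h against untreated had 335 genes higher and 384 lower, and KLA 12 h against KLA 6 h had 460 higher and 248 lower.

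Promoter windows (250 bases before to 50 after the start site, RefSeq, GRCm38.p6) were read for the 6667 tested genes with exactly 1 annotated start. The ISRE core was found in 19.5% of the 512 windows of genes called higher, against 6.49% of the 956 of genes called lower, 7.69% of all tested and 8.62% of all 22862 RefSeq genes with 1 window. The κB-type motif was found in 7.62% of windows of higher and 3.03% of lower genes, against 3.66% of all tested and 3.94% of RefSeq. The AP-1 motif was in 8.79% of windows of higher and 5.96% of lower genes, against 4.95% of all tested and 7.98% of RefSeq. The CRE was in 2.15% of windows of higher and 3.45% of lower genes, against 3.49% of all tested and 1.85% of RefSeq. So the κB-type motif shown above for Cxcl2, Cxcl1 and Nfkbia was in a larger share of windows of higher than of lower genes. Windows of the 2 sides also differed in base content, with a median ratio of observed to expected CpG of 0.634 for higher and 0.744 for lower genes, against 0.793 for all tested, and a median GC content of 57.2% for higher and 61.0% for lower genes. These shares are descriptions with no test, and the part of base content in them was not tested.

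By list, the ISRE core was in 12 of 20 antiviral effectors with 1 window and in 8 of 8 GTPases, and in 2 of 13 immediate early factors. The κB-type motif was in 4 of 15 primary response genes, Tnf, Cxcl1, Cxcl2 and Cxcl3, of which Cxcl3 rose and the other 3 fell. It was in none of the 13 immediate early factors.

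**Figure D5:**
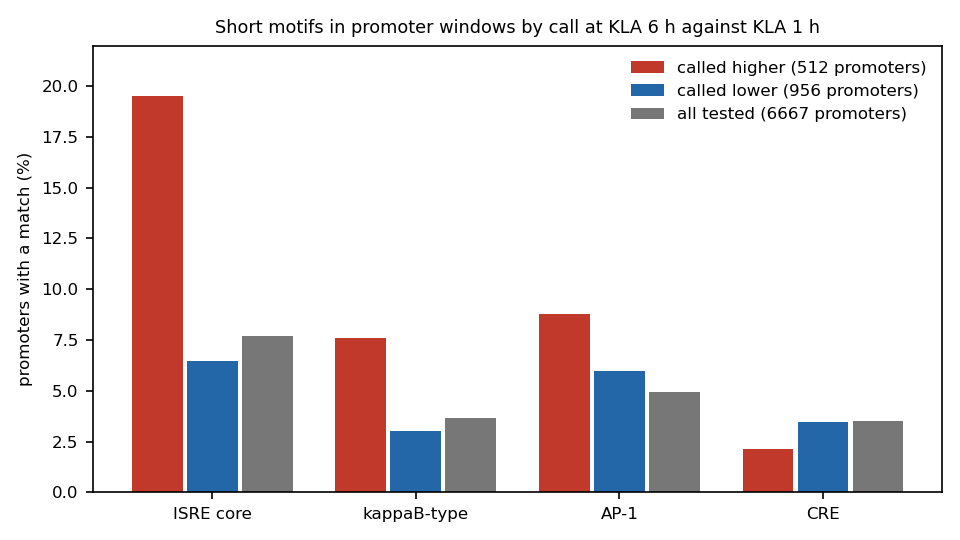
Share of promoter windows (percent) with a match on either strand to 4 short motifs, for genes called higher (512 windows) or lower (956) at KLA 6 h against KLA 1 h and for all tested (6667). The ISRE core is in 19.5% of windows of higher genes, against 6.49% of lower genes and 7.69% of all.

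Peak lists of 2 lipid regulators were used for position only. They come from macrophages given the LXR agonist GW3965 and not KLA. The midpoint of an LXR peak lay within 10 kb of the start site for 77.0% of the genes called higher, 83.1% of those called lower and 75.6% of all tested, and that of an SREBP1 peak for 52.3% of the genes called higher, 63.5% of those called lower and 59.3% of all tested.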

How the data were processed

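RNA of thioglycollate-elicited macrophages was analysed in 6 libraries, 1 per condition, from a table of RPKM values deposited by the authors on mouse build mm9. The submitters' processing notes name Bowtie 0.12.7, STAR and HOMER, with no roles. Strand use in counting is not stated there, so reads of antisense and overlapping genes cannot be told apart. Reads were recovered as RPKM × transcript length × the library total at which the smallest step is 1 read. In each library 99.97% of the values above 0 were then whole within 0.01 read. Ratios carry 95% exact conditional binomial (Clopper-Pearson) intervals on these reads. A gene was called at a log2 ratio of RPKM + 1 of at least 1 in size, and a gene without a read was set against a floor of 3 reads. Peaks were called with HOMER, per the file headers, and the signal of a peak is a tag count scaled by the authors. Only peak positions were used. The remaining samples were not analysed here. Promoter windows came from RefSeq (GRCm38.p6), matched to the table by gene ID, for 8362 of the 10383 genes tested, and no coordinate was moved between builds. The transcripts' reads sum to more than the library total, so isoforms share reads.

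The members, the 24 gene lists and the 8 marker lists were chosen with earlier results of these data known. Genes named are the 15 highest and 15 lowest log2 ratios of RPKM + 1 among tested genes with at least 30 reads in the higher library. Also named are the 8 largest rises and falls in RPKM. Per list, up to 4 members with the largest change or highest level were named, plus any that moved the other way. A few were named after their values were seen. A few results on single genes are not reported here. The interval and scaling code was tested on simulated data. Alternatives were other pseudocounts (0.5 and 3), filters on low values, length, transcript sums and 2 scalings, on which the closing section reports. Python 3.11.15, numpy 2.4.6, pandas 2.3.3, scipy 1.17.1 and matplotlib 3.10.9 were used.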

Additional observations from a re-analysis of the deposited data

How the results depend on the processing

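The count of genes at least 2-fold higher at KLA 6 h stayed within 1.5 times of 849 under all 9 alternatives, at 623 to 1193. The count of genes lower was 865 with a pseudocount of 3 and 1048 with TMM scaling, against 1576, and within 1.5 times of it under the other 7. The percent of called genes that were higher was 35, and it was 41.9 with a pseudocount of 3, 38.3 with an RPKM of at least 5 in 1 of the 2 libraries, 52.9 after centring on the median and 53.2 with TMM scaling, so which side holds more genes depends on the scaling. The log2 shift removed was −0.34 by the median and −0.345 by TMM. All 29 antiviral effectors were higher under each of the 9 alternatives, and 11 to 14 immediate early factors were lower, against 12. Of the 46 other list counts, 9 moved by over 1.5 times under each scaling, 8 with a pseudocount of 3, 2 with the RPKM of at least 5, and at most 1 under the other 3 alternatives tried, in each case by at most 3 genes. Under both scalings 4 genes of glycolysis and Hif1a were higher in place of 1, with 1 cell cycle gene lower in place of 4, 2 fatty acid genes lower in place of 4, and no LXR target lower in place of 1. No paired analysis was possible because there is 1 library a side, and no library could be left out for the same reason. Depth limits genes under about 1 RPKM, where a transcript of 1 kb has 2 to 3 reads.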
